A study of Mus musculus with 9 samples.

Results

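Motile cilia genes encode the beating machinery of multiciliated airway cells and the factors that build it. The 43 listed genes were picked by symbol from the axonemal dyneins, radial spoke and central pair proteins, tektins, dynein assembly factors and ciliogenesis transcription factors. Of these, 41 had a row in the table of 16165 genes, and 37 passed the filter on low values and were tested. Dnah3 and Dnah12 were not analysed here. Most of the genes were lower in the lungs of TGFα mice than in control lungs, both with pirfenidone and with vehicle. The test across all genes called none of them between pirfenidone and vehicle, where it called 0.549% of all tested genes lower and 0.152% higher. Levels are in RPKM, the reads of a gene divided by its length and by the size of the library. The median ratio of mean RPKM over the 41 genes was 0.508 for TGFα pirfenidone over control, 0.512 for TGFα vehicle over control and 0.937 for TGFα pirfenidone over TGFα vehicle.

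A motile cilium is a bundle of outer microtubules around a central pair, called the axoneme. Outer and inner dynein arms slide the microtubules against each other, radial spokes and the central pair regulate the arms, and nexin links turn sliding into bending. In the lung these cilia stand on multiciliated cells of the trachea and bronchioles, where they move mucus towards the throat. The transcription factor Foxj1 and factors of the RFX family turn on many of the genes during differentiation.

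RNA from the lungs of 9 mice was sequenced, 1 library per mouse and 3 mice per group. The TGFα pirfenidone mice carried a transforming growth factor alpha transgene, received Dox (doxycycline) for 6 weeks and were given the antifibrotic drug pirfenidone in the last 3 weeks. The TGFα vehicle mice had the same transgene and Dox, with vehicle in place of the drug. The sample descriptions mark the TGFα mice BT and the control mice ST, letters that are not explained there. The control mice were of control genotype and had vehicle. Their labels name no Dox, whereas the design text can be read as Dox in all groups, so the transgene and Dox cannot be told apart. No control mice received pirfenidone, and the labels give neither the promoter of the transgene nor the cells in which it is active. In RNA from whole lung, fewer ciliated cells and less RNA per cell cannot be told apart.

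The libraries rested on 11428709 to 18874158 reads. The pirfenidone libraries were the shallowest, at 11428709 to 14125367 reads, beside 15474002 to 18874158 reads in the vehicle and control libraries. Lung markers were present in all 9: Scgb1a1 of club cells ranged from 12786 to 49417 RPKM and Sftpc of alveolar type 2 cells from 12881 to 21973 RPKM. Vehicle library 1 stood apart in the cilia genes, though not in them alone. It was the highest of the 3 vehicle libraries in 40 of the 41 genes, whereas 36.3% of all tested genes were highest in that library. The same held for 70 of 82 other motile cilia genes, 14 of 15 endothelial genes and 12 of 12 skeletal muscle genes. It held for 18 of 43 intraflagellar transport genes, 7 of 15 alveolar type 2 genes and 1 of 19 general epithelial genes. Skeletal muscle genes summed to 397, 2387 and 20.3 RPKM in the pirfenidone libraries, 1476, 538 and 8.03 RPKM in the vehicle libraries and 14.2, 22.0 and 18.3 RPKM in the control libraries. In the TGFα libraries with little muscle RNA, pirfenidone library 3 and vehicle library 3, the median cilia gene stood at 44.3% and 38.8% of its control mean, the lowest of each group. The results are given with all 9 libraries, without single libraries, and with only the libraries that hold little muscle RNA.

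**Figure D1:**
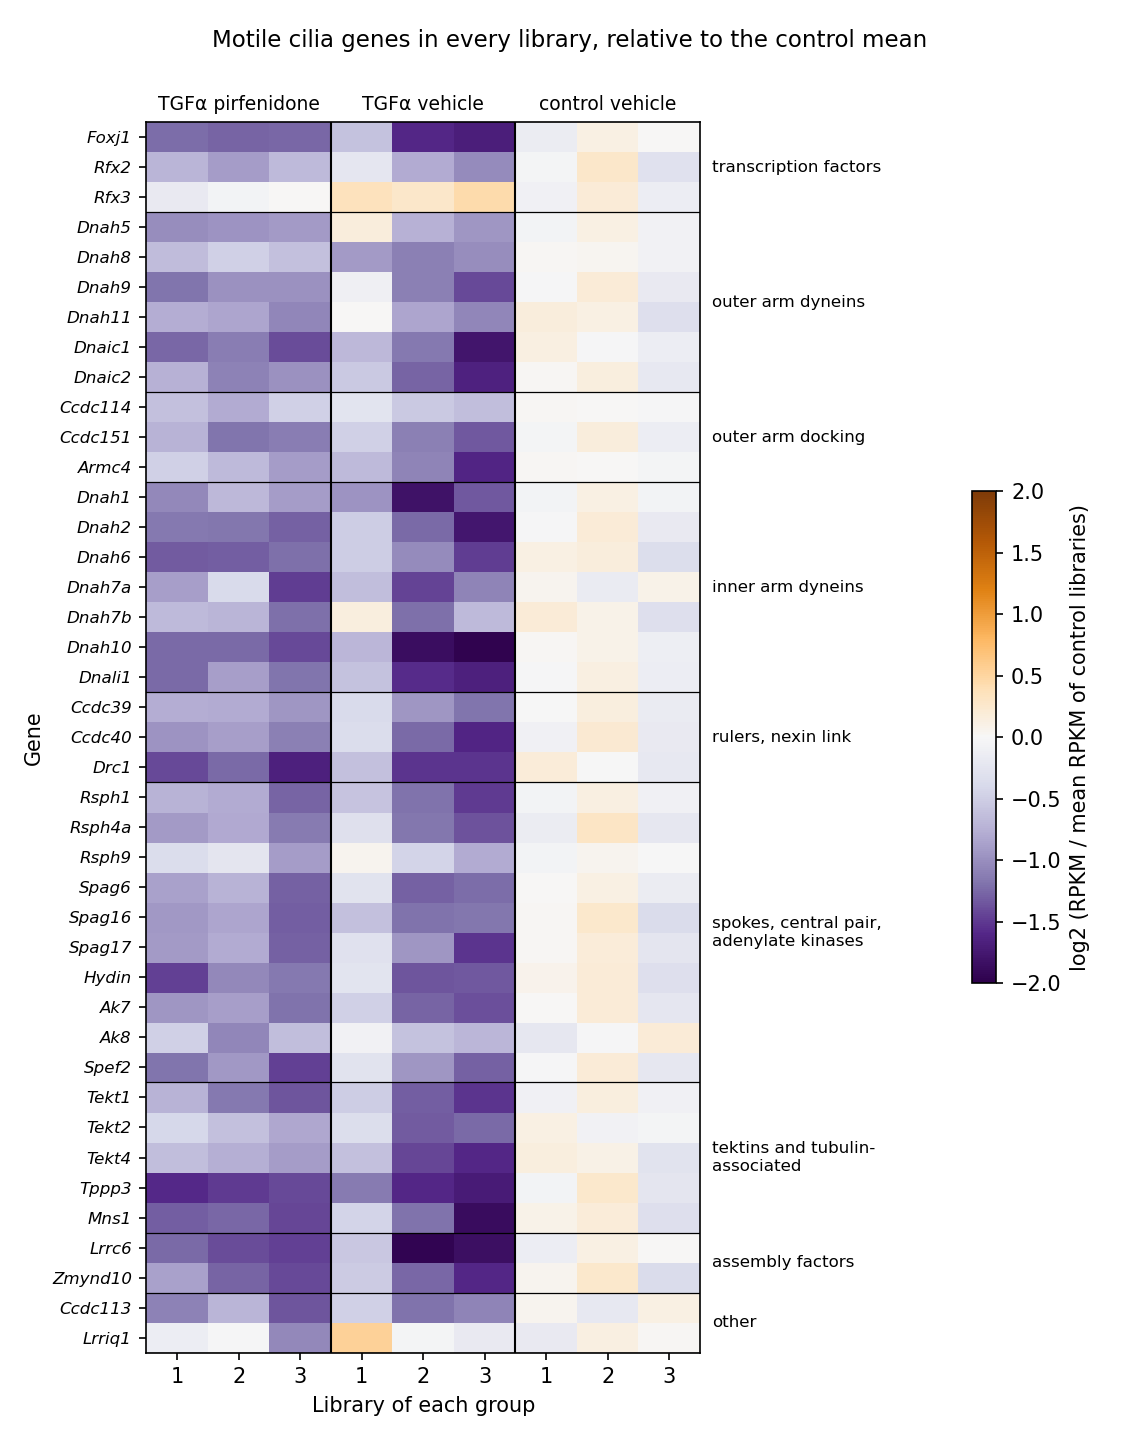
The 41 measured motile cilia genes in each library, as log2 of RPKM over the mean RPKM of the 3 control libraries, grouped by role; columns run TGFα pirfenidone, TGFα vehicle and control vehicle, libraries 1 to 3 each. Nearly all rows are below the control mean in the 6 TGFα libraries and nearer to it in vehicle library 1, and Rfx3 is above it with vehicle.

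The first question was whether the genes differed between TGFα and control lungs. TGFα vehicle lungs had 27 of 37 tested cilia genes lower than control and 0 higher at an adjusted p under 0.05 (limma, adjusted over all tested genes). Of all tested genes 11.2% were lower and 12.0% higher by that rule. The median log2 fold change of the cilia genes was -0.76, beside 0.04 for all tested genes. Because Dnah1, Dnah2, Dnah10, Dnah11, Hydin and Spef2 passed the filter only with the help of control libraries, all 41 genes were also fitted with no filter. That fit gave 28 lower with a median of -0.71, where 10.3% of all genes were lower. In 31 of the 41 genes every vehicle library was below every control library, which held for 18.6% of all genes in the table. In Rfx3 every vehicle library was above control, which held for 24.1% of all genes.

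TGFα pirfenidone lungs had 30 of the 37 genes lower than control and 0 higher, where 7.74% of all tested genes were lower and 10.6% higher. The median log2 fold change was -0.73, beside 0.05 for all tested genes. With no filter 30 of 41 were lower with a median of -0.67, where 6.90% of all genes were lower. In 39 of the 41 genes every pirfenidone library was below every control library, which held for 14.4% of all genes; Rfx3 and Lrriq1 overlapped. Both comparisons use the same control libraries. Lower in both were 24 genes. The share of all tested genes lower in both was not counted, so this number has nothing to be judged against. In the limma fit Armc4, Tekt2 and Tekt4 passed with vehicle alone, and Dnah5, Dnah9, Hydin, Rfx2, Spag17 and Spef2 with pirfenidone alone. Ak8, Dnah11, Rfx3 and Rsph9 passed in neither. Passing in 1 comparison alone does not show a difference between pirfenidone and vehicle, which was tested directly.

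The direct comparison of pirfenidone with vehicle in TGFα lungs called 0 of 37 cilia genes lower and 0 higher with limma, where 0.549% of all tested genes were lower and 0.152% higher. Limma-voom on the recovered reads also called 0, where 0.578% were lower and 0.0939% higher. At an unadjusted p under 0.05 there was 1 cilia gene, Rfx3, where 20.7% of all tested genes were under that limit. The median log2 fold change was -0.04, beside 0.03 for all tested genes. Pirfenidone and vehicle libraries overlapped in 39 of the 41 genes. In Dnah8 every pirfenidone library was above vehicle, which held for 14.8% of all genes, and in Rfx3 every one was below, which held for 8.62%. Without vehicle library 1 the median was 0.14 and without vehicle library 3 it was -0.16, and 0 genes were called either way.

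**Figure D2:**
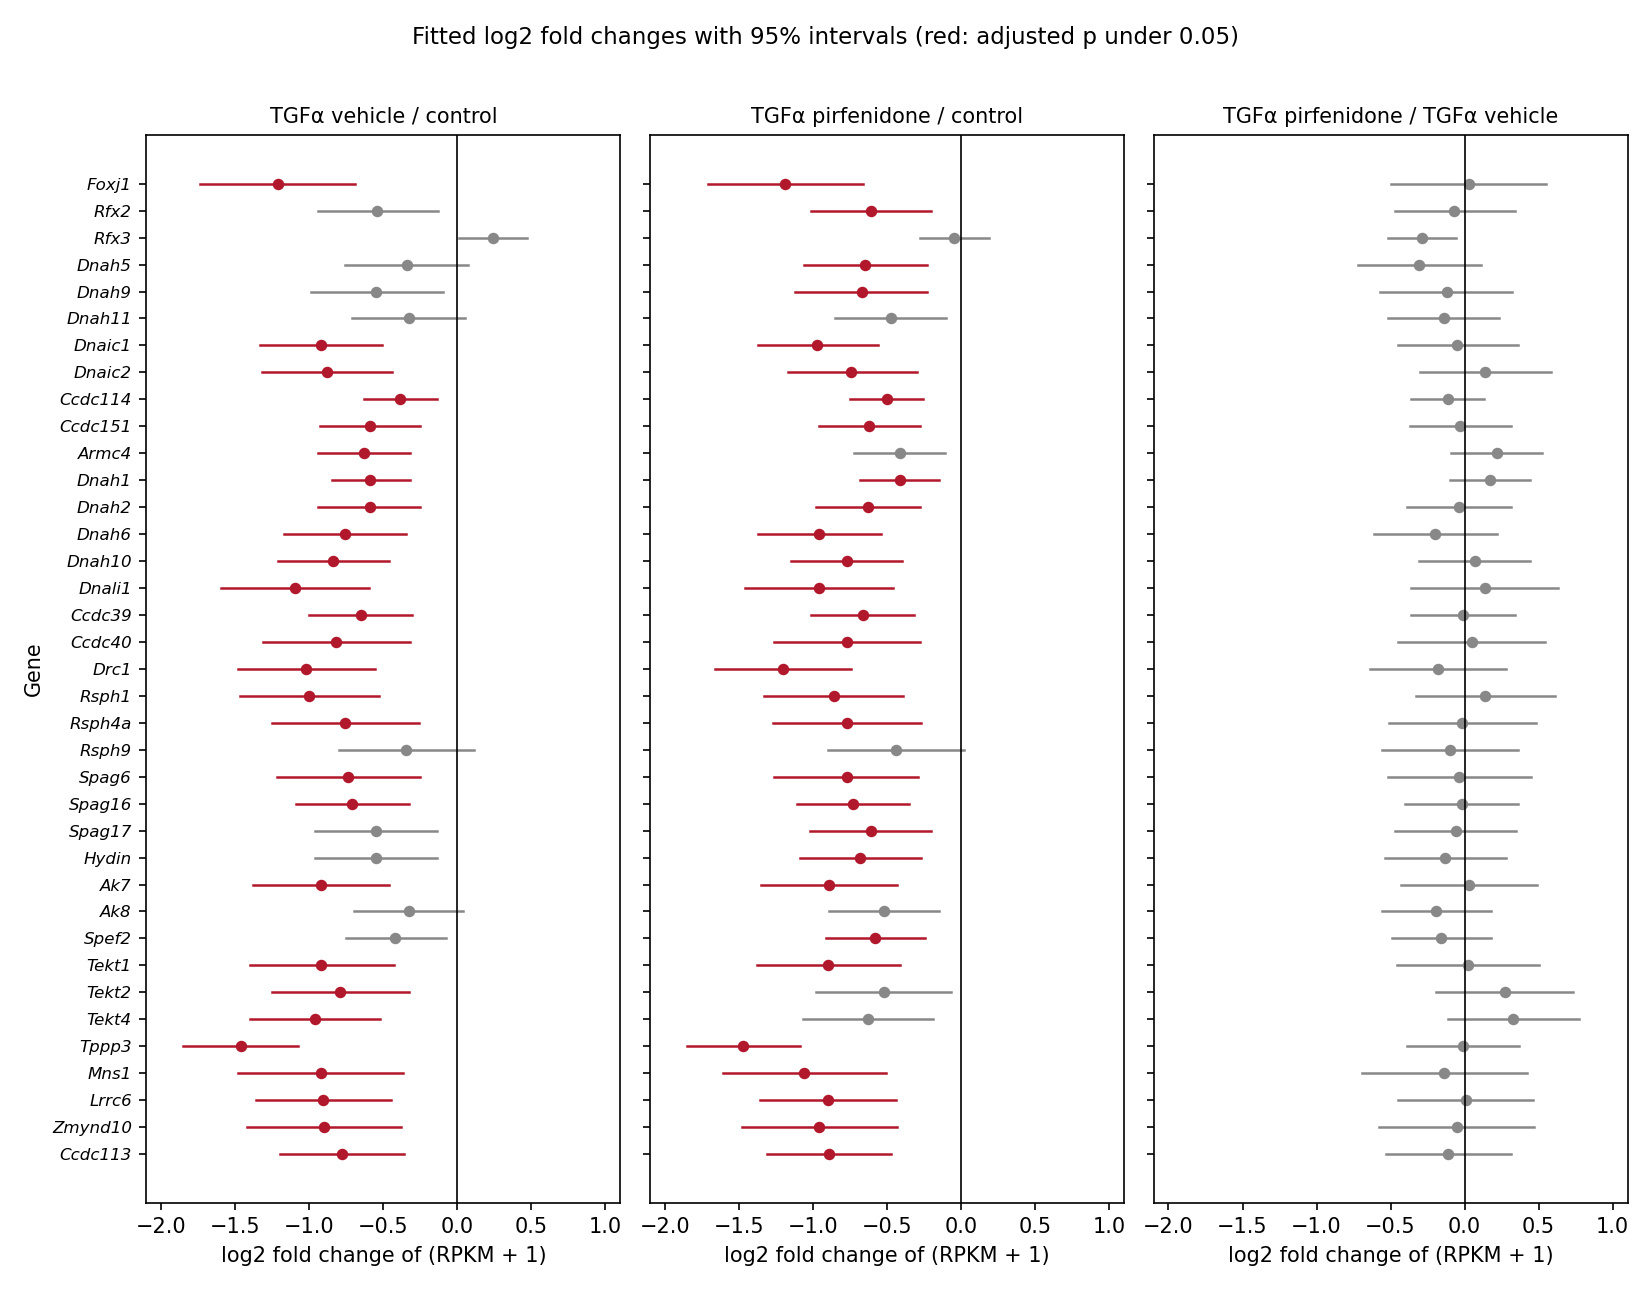
Fitted log2 fold changes of (RPKM + 1) with 95% intervals for the 37 tested motile cilia genes, in TGFα vehicle over control (left), TGFα pirfenidone over control (middle) and TGFα pirfenidone over TGFα vehicle (right). Red marks an adjusted p under 0.05: 27 genes on the left, 30 in the middle and 0 on the right. Dnah1, Dnah2, Dnah10, Dnah11, Hydin and Spef2 passed the filter only with the help of control libraries.

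The counts against control depended on single libraries. Without vehicle library 1 the vehicle count was 34 of 37, where 13.0% of all genes were lower. Without vehicle library 2 it was 8 and without vehicle library 3 it was 9, where 4.92% of all genes were lower each time. Without control library 1 or control library 2 it was 10 each time, where 5.78% and 5.56% were lower. The pirfenidone count was 11, 8 and 18 without pirfenidone library 1, 2 or 3, where 3.63%, 3.24% and 9.08% of all genes were lower. It was 5 and 6 without control library 1 or 2, where 3.17% and 2.81% were lower. The medians moved less, between -0.82 and -0.62 with pirfenidone and between -0.96 and -0.62 with vehicle. Dnah6, Dnaic1, Drc1, Foxj1 and Tppp3 stayed lower with pirfenidone whichever library was left out. Dnaic1, Dnali1, Drc1, Foxj1, Tekt4 and Tppp3 did so with vehicle. Dnah10 also did, but it passed the filter only with the help of control libraries, where it is high. Dnah1, which passed in the same way, stayed lower with vehicle in the fits that kept all 3 control libraries. Without any of these Dnah1 did not pass the filter and was not tested. The calls of Dnah1 and Dnah10 in these fits are therefore no added support.

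The 5 libraries with little muscle RNA leave 1 pirfenidone library and 1 vehicle library beside the 3 controls, and each lone library is then assumed to vary like the controls. In them the median log2 fold change of the cilia genes was -0.79 with pirfenidone and -0.97 with vehicle. By limma 0 genes were lower with pirfenidone (0.00% of all genes), and 33 had an unadjusted p under 0.05, where 21.9% of all genes did. With vehicle Foxj1 and Rsph1 were lower (0.240% of all genes), and 36 had an unadjusted p under 0.05, where 27.1% of all genes did. In all 9 libraries the median log2 fold change of the cilia genes was -0.73 with pirfenidone and -0.76 with vehicle. Each TGFα group here rests on 1 library, the lowest of its group in the median cilia gene. The part of muscle RNA in the cilia result was not tested.

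Foxj1 (chr11:116330704-116335499 in GRCm38.p6), the forkhead factor that starts the motile cilia programme, had 12.3, 11.9 and 12.0 RPKM with pirfenidone, 18.9, 9.53 and 9.0 RPKM with vehicle and 26.1, 31.4 and 28.9 RPKM in control. All 6 TGFα libraries were below all control libraries, and the 3 pirfenidone libraries lay between vehicle libraries 1 and 2. Its mean was 12.0 ± 0.193 RPKM with pirfenidone, 12.5 ± 5.59 RPKM with vehicle and 28.8 ± 2.64 RPKM in control (SD, n = 3 each), which is 2.39-fold lower with pirfenidone and 2.30-fold lower with vehicle. The log2 fold changes against control, on the log2(RPKM + 1) scale, were -1.19 ± 0.23 with pirfenidone (SE, limma adjusted p = 0.0112) and -1.21 ± 0.23 with vehicle (adjusted p = 0.00865). Pirfenidone over vehicle was 0.03 (95% interval -0.50 to 0.55, limma adjusted p = 0.962).

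Rfx2 and Rfx3 encode RFX factors, which bind the X-box in promoters of ciliary genes. Rfx2 had 3.52, 3.11 and 3.65 RPKM with pirfenidone, 4.93, 3.36 and 2.84 RPKM with vehicle and 5.66, 7.0 and 4.72 RPKM in control. The pirfenidone libraries were below control and vehicle library 1 overlapped it, with log2 fold changes of -0.61 with pirfenidone (limma adjusted p = 0.0466) and -0.54 with vehicle (adjusted p = 0.0584). The pirfenidone call was lost with no filter (limma adjusted p = 0.0535) and in limma-voom on the recovered reads (adjusted p = 0.0611). Rfx3 (chr19:27761721-28014669) had 1.55, 1.68 and 1.77 RPKM with pirfenidone, 2.25, 2.12 and 2.39 RPKM with vehicle and 1.66, 2.01 and 1.61 RPKM in control. Its vehicle libraries were the highest of the 9, above every pirfenidone and control library. Neither difference passed the limma test: pirfenidone over vehicle was -0.29 (95% interval -0.52 to -0.06, limma adjusted p = 0.171), and the log2 fold changes against control were -0.05 with pirfenidone (limma adjusted p = 0.789) and 0.24 with vehicle (adjusted p = 0.117). In limma-voom the vehicle difference of Rfx3 from control passed (0.37, adjusted p = 0.0401), where 12.6% of all genes were higher, and the pirfenidone difference from vehicle did not (-0.43, adjusted p = 0.114).

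**Figure D3:**
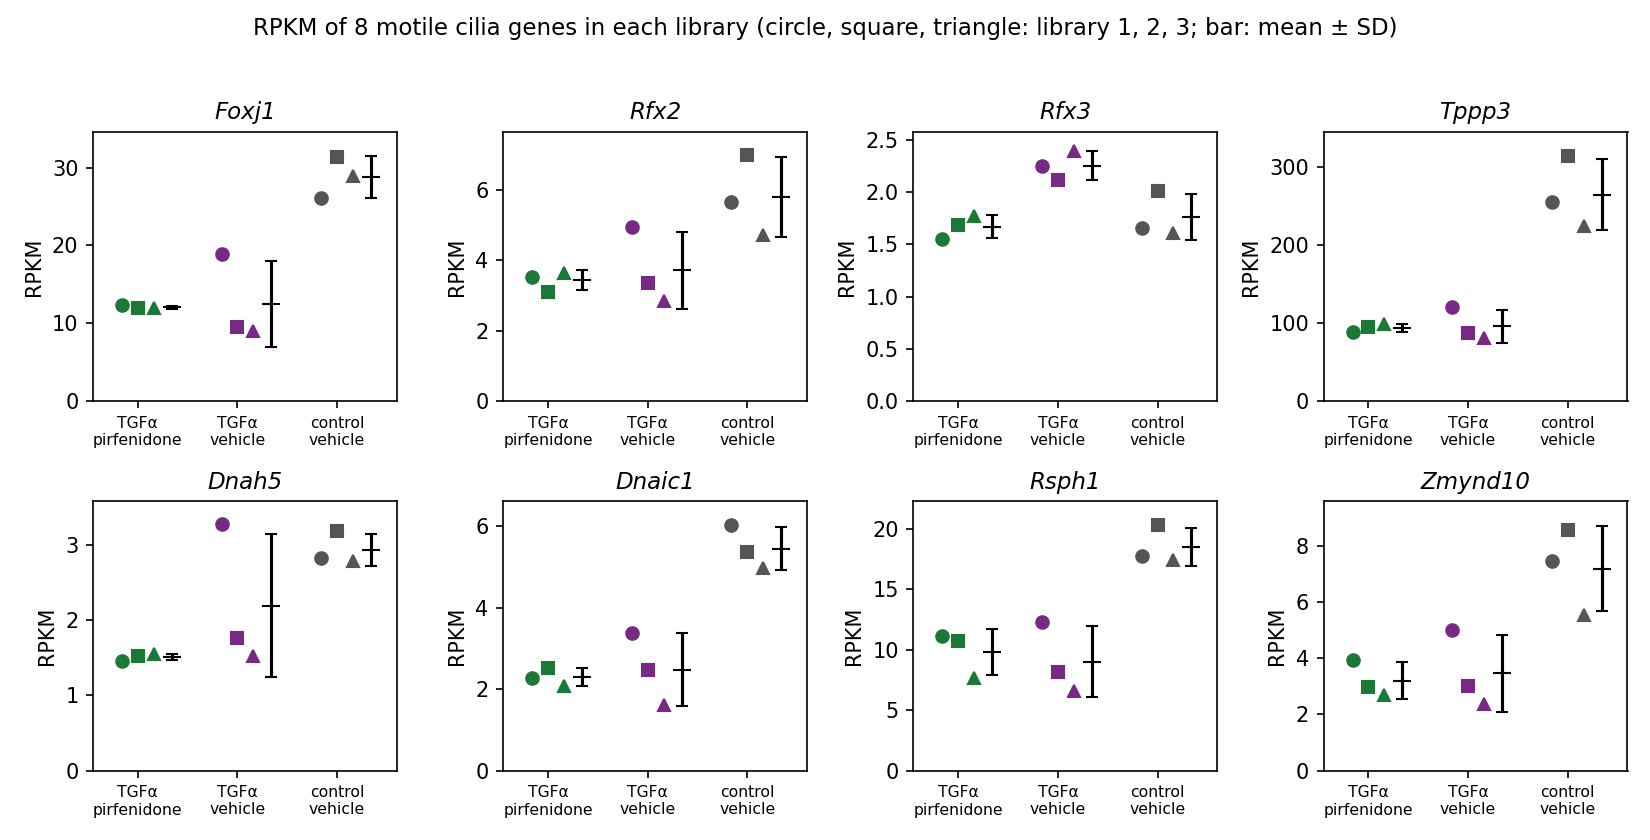
RPKM of 8 motile cilia genes in every library (circle, square and triangle for libraries 1, 2 and 3), with mean ± SD of 3 mice beside each group; axes start at 0. Foxj1, Tppp3, Dnaic1, Rsph1 and Zmynd10 have all 6 TGFα libraries below control, Dnah5 and Rfx2 overlap control through vehicle library 1, and Rfx3 is highest with vehicle.

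Because the genes moved together and include RFX factors, their promoters were searched for X-box letters. RefSeq windows (GRCm38.p6), from 250 bases before to 50 after a start site, were found for 35 members, and a gene with several windows counted once if any of them matched. Of the measured members, Foxj1, Tppp3, Rsph1, Rsph4a, Lrrc6 and Armc4 had no window and were not searched. An X-box was counted as GTNNCC, 0 to 3 letters, then GGNNAC, which reads alike on both strands. It was found in 9 of the 35 members (25.7%), beside 4.38% of all 27025 genes with a window and 5.5% of those in the expression table. Lists of related genes held it at 17.9% (other motile cilia genes) and 18.4% (intraflagellar transport genes, whose median change was near 0). Its single arm GTTGCC, read on both strands and counted also inside an X-box, was found in 18 of 35 (51.4%), beside 14.1% of all genes and 14.9% of those in the expression table. It was found in 41.8% of the other motile cilia genes and 39.5% of the intraflagellar transport genes, and the difference of these lists from the members was not tested. The forkhead letters GTAAACA, on both strands, were found in 1 of 35 (2.86%), in Ak7, beside 4.05% of all genes. A match is a run of letters and not evidence of binding. Shown are, of the members with an X-box or a single arm, the 6 with the highest mean RPKM, 5′ to 3′ on the strand of the gene. Capitals mark the X-box in Rsph9 (chr17:46144151-46144450, minus strand) and Zmynd10 (chr9:107547054-107547353, plus strand). In the others they mark the single arm, in Ccdc113 (chr8:95533850-95534149, plus strand), Drc1 (chr5:30281143-30281442, plus strand), Tekt2 (chr4:126325597-126325896, minus strand) and Tekt1 (chr11:72361833-72362132, minus strand).
Rsph9: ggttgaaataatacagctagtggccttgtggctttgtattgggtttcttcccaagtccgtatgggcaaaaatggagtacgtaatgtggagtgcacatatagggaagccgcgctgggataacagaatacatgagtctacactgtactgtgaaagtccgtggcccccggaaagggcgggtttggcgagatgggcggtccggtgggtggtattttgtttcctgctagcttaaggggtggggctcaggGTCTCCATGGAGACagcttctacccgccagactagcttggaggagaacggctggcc
Zmynd10: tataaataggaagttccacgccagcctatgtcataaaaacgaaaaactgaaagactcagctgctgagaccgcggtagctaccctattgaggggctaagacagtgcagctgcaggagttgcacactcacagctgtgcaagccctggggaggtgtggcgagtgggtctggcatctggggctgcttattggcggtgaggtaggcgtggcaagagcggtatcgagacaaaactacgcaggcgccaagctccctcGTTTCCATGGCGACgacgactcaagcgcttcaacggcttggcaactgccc
Ccdc113: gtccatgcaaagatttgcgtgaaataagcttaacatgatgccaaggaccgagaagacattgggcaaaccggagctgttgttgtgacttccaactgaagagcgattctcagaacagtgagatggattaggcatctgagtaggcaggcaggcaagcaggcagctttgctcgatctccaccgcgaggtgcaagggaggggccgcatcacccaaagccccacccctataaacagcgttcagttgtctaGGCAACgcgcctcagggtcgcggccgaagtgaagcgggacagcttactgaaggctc
Drc1: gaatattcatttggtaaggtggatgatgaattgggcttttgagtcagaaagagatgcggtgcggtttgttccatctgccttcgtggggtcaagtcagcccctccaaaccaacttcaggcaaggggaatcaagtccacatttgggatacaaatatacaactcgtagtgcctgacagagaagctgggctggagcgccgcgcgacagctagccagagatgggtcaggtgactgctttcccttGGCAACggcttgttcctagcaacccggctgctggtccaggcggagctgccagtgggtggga
Tekt2: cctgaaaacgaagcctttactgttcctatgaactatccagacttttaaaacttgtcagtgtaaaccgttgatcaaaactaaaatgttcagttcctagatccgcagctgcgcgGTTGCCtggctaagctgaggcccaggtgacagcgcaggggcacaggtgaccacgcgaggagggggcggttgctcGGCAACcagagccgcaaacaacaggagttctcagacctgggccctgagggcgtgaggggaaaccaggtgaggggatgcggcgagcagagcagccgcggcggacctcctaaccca
Tekt1: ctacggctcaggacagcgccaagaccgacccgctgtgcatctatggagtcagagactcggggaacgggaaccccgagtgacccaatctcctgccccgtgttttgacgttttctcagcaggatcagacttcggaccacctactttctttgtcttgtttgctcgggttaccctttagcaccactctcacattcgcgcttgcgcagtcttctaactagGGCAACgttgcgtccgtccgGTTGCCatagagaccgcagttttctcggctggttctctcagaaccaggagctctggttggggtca
In Rsph9 and Zmynd10 the X-box overlaps the annotated start site, and Tekt1 and Tekt2 each hold 2 arms. Of these 6 genes Ccdc113, Drc1, Tekt1 and Zmynd10 were lower in both TGFα groups, Tekt2 passed with vehicle alone, and Rsph9 passed in neither.

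The outer dynein arms supply most of the beating force. With no filter 5 of the 6 measured outer arm genes were lower with pirfenidone, where 6.90% of all genes were, and 3 with vehicle, where 10.3% were. The pirfenidone calls of Dnah5 and Dnah9 lay close to the threshold. The heavy chain Dnah5 (chr15:28154854-28472045), often mutated in human primary ciliary dyskinesia, had 1.46, 1.52 and 1.55 RPKM with pirfenidone, 3.28, 1.76 and 1.53 RPKM with vehicle and 2.83, 3.18 and 2.79 RPKM in control. Vehicle library 1 was the highest of all 9, while the other 5 TGFα libraries were below every control library. The log2 fold changes were -0.65 ± 0.18 with pirfenidone (SE, limma adjusted p = 0.0408) and -0.34 ± 0.18 with vehicle (adjusted p = 0.205). Its ratio of mean RPKM for pirfenidone over vehicle, 0.689, was the lowest of the 41 genes, and the fitted difference was -0.31 (95% interval -0.72 to 0.11, limma adjusted p = 0.372).

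The heavy chain Dnah9, which in human airway cilia sits in the outer arms of the distal part, had 1.16, 1.33 and 1.34 RPKM with pirfenidone, 2.45, 1.22 and 0.989 RPKM with vehicle and 2.58, 2.99 and 2.33 RPKM in control. It gave log2 fold changes of -0.67 with pirfenidone (limma adjusted p = 0.0453) and -0.55 with vehicle (adjusted p = 0.0737). Dnah11, whose loss in people disturbs beating while the arms look normal, had 0.945, 0.908 and 0.775 RPKM with pirfenidone, 1.63, 0.901 and 0.776 RPKM with vehicle and 1.8, 1.74 and 1.29 RPKM in control. Both genes overlapped control through vehicle library 1 alone. With no filter Dnah11 gave -0.47 with pirfenidone (limma adjusted p = 0.0687) and -0.33 with vehicle (adjusted p = 0.161).

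The intermediate chains Dnaic1 and Dnaic2, which hold the outer arm at the microtubule, were lower in both groups. Dnaic1 had 2.28, 2.52 and 2.07 RPKM with pirfenidone, 3.38, 2.46 and 1.60 RPKM with vehicle and 6.02, 5.37 and 4.96 RPKM in control. The TGFα and control libraries did not overlap, and the mean was 2.38-fold lower with pirfenidone and 2.20-fold lower with vehicle. Its log2 fold changes were -0.97 ± 0.18 with pirfenidone (SE, limma adjusted p = 0.00909) and -0.92 ± 0.18 with vehicle (adjusted p = 0.00921). Dnaic2 had 3.23, 2.56 and 2.76 RPKM with pirfenidone, 3.74, 2.24 and 1.73 RPKM with vehicle and 5.55, 5.99 and 4.71 RPKM in control, again without overlap, and gave -0.74 with pirfenidone (limma adjusted p = 0.0318) and -0.88 with vehicle (adjusted p = 0.0142).

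Dnah8 (chr17:30626935-30875762), an outer arm heavy chain best known from sperm, was under the filter at 0.528, 0.597 and 0.539 RPKM with pirfenidone, 0.438, 0.386 and 0.411 RPKM with vehicle and 0.840, 0.855 and 0.786 RPKM in control. The 3 groups did not overlap, with pirfenidone in the middle. In the fit with no filter Dnah8 was lower than control with pirfenidone (-0.23, limma adjusted p = 0.0410) and with vehicle (-0.37, adjusted p = 0.00690). Pirfenidone over vehicle was 0.14 (95% interval -0.01 to 0.29, limma adjusted p = 0.276).

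The docking complex proteins Ccdc114, Ccdc151 and Armc4 fix the outer arms to the microtubule. Ccdc114 and Ccdc151 were lower with pirfenidone, where 7.74% of all tested genes were, and all 3 with vehicle, where 11.2% were. Ccdc114 had 3.28, 2.93 and 3.64 RPKM with pirfenidone, 4.22, 3.47 and 3.24 RPKM with vehicle and 5.14, 5.06 and 4.94 RPKM in control. The difference was small, 1.54-fold lower with pirfenidone and 1.38-fold lower with vehicle, and the control libraries lay close together. Its log2 fold changes were -0.50 with pirfenidone (limma adjusted p = 0.0162) and -0.39 with vehicle (adjusted p = 0.0338). Ccdc151 had 1.41, 1.03 and 1.08 RPKM with pirfenidone, 1.69, 1.09 and 0.923 RPKM with vehicle and 2.27, 2.61 and 2.13 RPKM in control, with all TGFα libraries below control. Its log2 fold changes were -0.62 with pirfenidone (limma adjusted p = 0.0236) and -0.59 with vehicle (adjusted p = 0.0234). Armc4 had 1.43, 1.26 and 1.08 RPKM with pirfenidone, 1.27, 0.951 and 0.655 RPKM with vehicle and 2.05, 2.01 and 1.95 RPKM in control. Although all 6 TGFα libraries were below control, only the vehicle difference passed, with -0.41 with pirfenidone (limma adjusted p = 0.0642) and -0.63 with vehicle (adjusted p = 0.0132).

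Inner dynein arms shape the bend of the cilium. With no filter 5 of the 7 measured inner arm genes were lower with pirfenidone, where 6.90% of all genes were, and 5 with vehicle, where 10.3% were. The heavy chain Dnah10 had 0.979, 0.981 and 0.872 RPKM with pirfenidone, 1.43, 0.646 and 0.60 RPKM with vehicle and 2.36, 2.46 and 2.14 RPKM in control. Every TGFα library was below control, and the mean was 2.46-fold lower with pirfenidone and 2.6-fold lower with vehicle. With no filter its log2 fold changes were -0.77 with pirfenidone (limma adjusted p = 0.0137) and -0.84 with vehicle (adjusted p = 0.0087). Dnah1, another heavy chain, had 0.598, 0.764 and 0.660 RPKM with pirfenidone, 0.630, 0.352 and 0.486 RPKM with vehicle and 1.18, 1.33 and 1.18 RPKM in control, and its mean was 1.82-fold lower with pirfenidone and 2.51-fold lower with vehicle. It had the highest ratio of mean RPKM for pirfenidone over vehicle of the 41 genes, 1.38. The 2 TGFα groups overlapped, and with no filter the fitted difference was 0.17 (95% interval -0.03 to 0.38, limma adjusted p = 0.331).

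The heavy chain Dnah6 had 2.03, 2.05 and 2.18 RPKM with pirfenidone, 3.53, 2.48 and 1.8 RPKM with vehicle and 5.46, 5.64 and 4.0 RPKM in control. It was among the genes that stayed lower with pirfenidone whichever library was left out, and gave -0.96 with pirfenidone (limma adjusted p = 0.0101) and -0.76 with vehicle (adjusted p = 0.0195). The heavy chain Dnah2 had 0.760, 0.756 and 0.692 RPKM with pirfenidone, 1.2, 0.715 and 0.503 RPKM with vehicle and 1.66, 1.92 and 1.5 RPKM in control and was 2.30-fold lower with pirfenidone and 2.10-fold lower with vehicle. Dnali1, a light intermediate chain of the inner arms, had 4.49, 5.77 and 4.72 RPKM with pirfenidone, 7.02, 3.58 and 3.35 RPKM with vehicle and 10.5, 11.7 and 9.74 RPKM in control. Its TGFα libraries were below control, with log2 fold changes of -0.96 with pirfenidone (limma adjusted p = 0.0191) and -1.10 with vehicle (adjusted p = 0.0102).

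Dnah7a (chr1:53396995-53707301) and Dnah7b (chr1:46066071-46373551) are near-identical inner arm genes under the filter. Reads may be split between them, so their values are uncertain. Dnah7a had 0.127 to 0.271 RPKM with pirfenidone, 0.130 to 0.227 RPKM with vehicle and 0.316 to 0.376 RPKM in control, on 22 to 78 reads a library, and its TGFα libraries were below control. Dnah7b had 0.213 to 0.313 RPKM with pirfenidone, 0.214 to 0.549 RPKM with vehicle and 0.393 to 0.560 RPKM in control, and overlapped control through vehicle library 1. In the fit with no filter neither passed against control (limma adjusted p of 0.114 and 0.157 with pirfenidone, 0.0695 and 0.34 with vehicle, Dnah7a before Dnah7b).

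Radial spoke heads and the central pair pass regulation on to the arms. With no filter 8 of 10 such genes, with the ciliary adenylate kinases counted here, were lower with pirfenidone, where 6.90% of all genes were. With vehicle 5 were lower, where 10.3% of all genes were. The spoke head gene Rsph1 had 11.1, 10.7 and 7.61 RPKM with pirfenidone, 12.3, 8.11 and 6.61 RPKM with vehicle and 17.7, 20.3 and 17.4 RPKM in control. The TGFα libraries did not reach the control libraries, and the log2 fold changes were -0.86 ± 0.21 with pirfenidone (SE, limma adjusted p = 0.0237) and -1.0 ± 0.21 with vehicle (adjusted p = 0.0116). Rsph4a, of the same spoke head, had 3.52, 3.81 and 3.03 RPKM with pirfenidone, 5.37, 2.97 and 2.58 RPKM with vehicle and 5.98, 8.27 and 5.73 RPKM in control and gave -0.77 with pirfenidone (limma adjusted p = 0.0417) and -0.76 with vehicle (adjusted p = 0.0383). In limma-voom its pirfenidone difference missed the threshold (adjusted p = 0.0503). Rsph9, the other spoke head gene, had 7.99, 8.59 and 5.49 RPKM with pirfenidone, 10.7, 7.54 and 5.91 RPKM with vehicle and 9.85, 10.6 and 10.2 RPKM in control. Its pirfenidone libraries were below control, vehicle library 1 was the highest of all 9, and neither difference passed, at -0.44 with pirfenidone (limma adjusted p = 0.159) and -0.35 with vehicle (adjusted p = 0.243).

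Among the central pair genes, Spag6 had 3.34, 3.65 and 2.47 RPKM with pirfenidone, 5.01, 2.48 and 2.6 RPKM with vehicle and 6.10, 6.60 and 5.46 RPKM in control and gave -0.77 with pirfenidone (limma adjusted p = 0.0375) and -0.74 with vehicle (adjusted p = 0.0374). Spag16 had 2.07, 2.23 and 1.61 RPKM with pirfenidone, 2.59, 1.73 and 1.75 RPKM with vehicle and 4.04, 4.76 and 3.07 RPKM in control and gave -0.73 with pirfenidone (limma adjusted p = 0.0202) and -0.71 with vehicle (adjusted p = 0.0191). In both genes all TGFα libraries were below control. Spag17, a scaffold of the central pair, had 1.25, 1.36 and 0.963 RPKM with pirfenidone, 1.92, 1.22 and 0.815 RPKM with vehicle and 2.40, 2.66 and 1.98 RPKM in control. It was below control in every TGFα library and lay at the threshold, at -0.61 with pirfenidone (limma adjusted p = 0.0478) and -0.55 with vehicle (adjusted p = 0.0575). In limma-voom the calls were the other way round, with an adjusted p of 0.0521 with pirfenidone and 0.0407 with vehicle.

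Hydin, a giant central pair protein whose loss causes hydrocephalus in mice, had 0.743, 0.997 and 0.915 RPKM with pirfenidone, 1.71, 0.799 and 0.802 RPKM with vehicle and 2.14, 2.33 and 1.64 RPKM in control. Vehicle library 1 lay inside the control range and the other 5 TGFα libraries below it. With no filter the log2 fold changes were -0.68 with pirfenidone (limma adjusted p = 0.0294) and -0.55 with vehicle (adjusted p = 0.0522). In limma-voom, run on the filtered genes only, the vehicle difference passed as well (adjusted p = 0.0346). Hydin passes that filter only with the help of control libraries, so this pass adds no support. Spef2, also of the central pair, had 0.643, 0.759 and 0.530 RPKM with pirfenidone, 1.2, 0.753 and 0.595 RPKM with vehicle and 1.43, 1.67 and 1.26 RPKM in control. Its TGFα libraries were below control. With no filter the log2 fold changes were -0.58 with pirfenidone (limma adjusted p = 0.0209) and -0.42 with vehicle (adjusted p = 0.0536). In limma-voom the vehicle difference of Spef2 passed as well (adjusted p = 0.0406), with the same limit as for Hydin.

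The ciliary adenylate kinase gene Ak7 had 6.05, 6.31 and 5.10 RPKM with pirfenidone, 8.36, 4.79 and 4.45 RPKM with vehicle and 11.7, 13.3 and 9.97 RPKM in control. All its TGFα libraries were below control, and the mean was 2.00-fold lower with pirfenidone and 1.98-fold lower with vehicle. The log2 fold changes were -0.89 with pirfenidone (limma adjusted p = 0.0195) and -0.92 with vehicle (adjusted p = 0.0147). Ak8, a related kinase gene, had 2.51, 1.69 and 2.25 RPKM with pirfenidone, 3.35, 2.30 and 2.16 RPKM with vehicle and 3.03, 3.46 and 4.03 RPKM in control. Vehicle library 1 reached into the control range, and neither difference passed, at -0.52 with pirfenidone (limma adjusted p = 0.0557) and -0.33 with vehicle (adjusted p = 0.167).

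Ccdc39 and Ccdc40 form the ruler that spaces spokes and inner arms, and Drc1 is part of the nexin link. All 3 were lower with pirfenidone, where 7.74% of all tested genes were, and with vehicle, where 11.2% were. Drc1 (chr5:30281335-30366695) had 3.24, 3.64 and 2.72 RPKM with pirfenidone, 5.64, 3.00 and 2.99 RPKM with vehicle and 9.76, 8.64 and 7.54 RPKM in control. Its 6 TGFα libraries were below control, and the mean was 2.70-fold lower with pirfenidone and 2.23-fold lower with vehicle. The log2 fold changes were -1.2 ± 0.20 with pirfenidone (SE, limma adjusted p = 0.00668) and -1.02 ± 0.20 with vehicle (adjusted p = 0.00995), and pirfenidone over vehicle was -0.18 (95% interval -0.64 to 0.28, limma adjusted p = 0.651). Ccdc39 had 3.00, 2.97 and 2.68 RPKM with pirfenidone, 3.93, 2.69 and 2.27 RPKM with vehicle and 5.15, 5.70 and 4.62 RPKM in control and Ccdc40 had 2.83, 2.96 and 2.56 RPKM with pirfenidone, 4.29, 2.31 and 1.79 RPKM with vehicle and 5.17, 6.44 and 4.84 RPKM in control. Both were below control in every TGFα library, Ccdc39 with -0.66 with pirfenidone (limma adjusted p = 0.0201) and -0.65 with vehicle (adjusted p = 0.0180) and Ccdc40 with -0.77 with pirfenidone (limma adjusted p = 0.0405) and -0.82 with vehicle (adjusted p = 0.0281).

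Tppp3 (chr8:105467492-105471422), a tubulin-binding protein used as a marker of ciliated cells, was the most abundant member and had the lowest ratios to control. It had 88.1, 94.6 and 98.9 RPKM with pirfenidone, 120, 86.9 and 80.4 RPKM with vehicle and 255, 314 and 225 RPKM in control. Every TGFα library was far below the lowest control library. Its mean was 93.8 ± 5.42 RPKM with pirfenidone, 95.8 ± 21.3 RPKM with vehicle and 265 ± 45.7 RPKM in control (SD, n = 3 each), which is 2.82-fold lower with pirfenidone and 2.76-fold lower with vehicle. The log2 fold changes were -1.47 ± 0.17 with pirfenidone (SE, limma adjusted p = 0.00150) and -1.46 ± 0.17 with vehicle (adjusted p = 0.00173), and pirfenidone over vehicle was -0.01 (95% interval -0.39 to 0.37, limma adjusted p = 0.982).

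Tektins are filaments inside the outer microtubules, where Mns1 also sits. Tekt1 had 4.65, 3.47 and 3.03 RPKM with pirfenidone, 5.45, 3.11 and 2.69 RPKM with vehicle and 7.27, 8.57 and 7.30 RPKM in control, and was lower in both groups at -0.90 with pirfenidone (limma adjusted p = 0.0225) and -0.92 with vehicle (adjusted p = 0.0176). Mns1 had 2.76, 2.85 and 2.51 RPKM with pirfenidone, 4.99, 2.95 and 1.85 RPKM with vehicle and 7.21, 7.69 and 5.43 RPKM in control, and was lower in both groups at -1.06 with pirfenidone (limma adjusted p = 0.0199) and -0.92 with vehicle (adjusted p = 0.0274). In Tekt4 and Tekt2 the pirfenidone means were above the vehicle means. Tekt4 had 4.17, 3.85 and 3.47 RPKM with pirfenidone, 4.24, 2.40 and 2.14 RPKM with vehicle and 7.18, 6.92 and 5.36 RPKM in control. All TGFα libraries were below control, with -0.63 with pirfenidone (limma adjusted p = 0.0545) and -0.96 with vehicle (adjusted p = 0.0106), and pirfenidone over vehicle, the highest fitted value among the members, was 0.33 (95% interval -0.11 to 0.77, limma adjusted p = 0.360). Tekt2 had 5.33, 4.61 and 4.03 RPKM with pirfenidone, 5.64, 2.83 and 3.01 RPKM with vehicle and 7.64, 6.75 and 6.88 RPKM in control, with -0.52 with pirfenidone (limma adjusted p = 0.103) and -0.79 with vehicle (adjusted p = 0.0241), and pirfenidone over vehicle was 0.27 (95% interval -0.19 to 0.73, limma adjusted p = 0.475).

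Lrrc6 and Zmynd10 act in the cytoplasm, where dynein arms are put together before they enter the cilium. Both were lower in both groups. Lrrc6 had 1.34, 1.2 and 1.15 RPKM with pirfenidone, 2.16, 0.823 and 0.890 RPKM with vehicle and 2.88, 3.44 and 3.18 RPKM in control, on 28 to 112 reads a library. Its TGFα libraries were below control, with log2 fold changes of -0.90 with pirfenidone (limma adjusted p = 0.0180) and -0.91 with vehicle (adjusted p = 0.0146). Zmynd10 had 3.94, 2.98 and 2.71 RPKM with pirfenidone, 5.02, 3.00 and 2.39 RPKM with vehicle and 7.46, 8.59 and 5.56 RPKM in control, again without overlap. It gave -0.96 with pirfenidone (limma adjusted p = 0.0234) and -0.90 with vehicle (adjusted p = 0.0242).

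Ccdc113, a coiled-coil protein of motile cilia, had 3.99, 5.18 and 3.34 RPKM with pirfenidone, 6.08, 3.71 and 4.04 RPKM with vehicle and 8.84, 7.42 and 9.25 RPKM in control. Its TGFα libraries were below control, and the mean was 2.04-fold lower with pirfenidone and 1.84-fold lower with vehicle. It gave log2 fold changes of -0.89 with pirfenidone (limma adjusted p = 0.0141) and -0.78 with vehicle (adjusted p = 0.0187). Lrriq1 was under the filter with 19 to 75 reads a library. It overlapped control in both groups, at 0.194 to 0.392 RPKM with pirfenidone, 0.351 to 0.579 RPKM with vehicle and 0.351 to 0.437 RPKM in control.

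Across the members, the ratio of mean RPKM to control ran from 0.355 (Tppp3) to 0.949 (Rfx3) with pirfenidone and from 0.362 (Tppp3) to 1.28 (Rfx3) with vehicle. Pirfenidone over vehicle ran from 0.689 (Dnah5) to 1.38 (Dnah1). The precision differs between members, since 22 genes had fewer than 100 reads in at least 1 library. Fitted log2 fold changes were nearer 0 in longer genes across the 37 tested members (Pearson r against log2 length of 0.38 with pirfenidone and 0.48 with vehicle). The log2 ratio of mean RPKM, to which no 1 is added, gave r of 0.08 with pirfenidone and 0.21 with vehicle over 41 genes. The fitted log2 fold changes of the 37 tested members followed the level more closely than the length. Pearson r against log2 mean RPKM in control was -0.73 with pirfenidone and -0.72 with vehicle, so genes of low level were nearer 0. Part of this r is built in, since the control level enters both values and the added 1 RPKM pulls low genes towards 0. The members come from the same libraries and are not independent.

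Other ciliary genes were counted over whole lists, beside the shares over all tested genes, which were 7.74% lower and 10.6% higher with pirfenidone, and 11.2% lower and 12.0% higher with vehicle. Of 75 other tested genes of motile cilia, 44 were lower and 1 higher than control with pirfenidone, and 46 lower and 0 higher with vehicle, with medians of -0.65 with pirfenidone and -0.64 with vehicle. Dynlrb2, a dynein light chain, had 20.2, 15.7 and 13.3 RPKM with pirfenidone, 21.5, 15.5 and 14.2 RPKM with vehicle and 33.1, 31.9 and 33.5 RPKM in control. It did not overlap control, with log2 fold changes of -0.98 with pirfenidone (limma adjusted p = 0.00781) and -0.93 with vehicle (adjusted p = 0.00789). Dnal4, another dynein light chain, was the 1 higher gene (0.35 with pirfenidone, limma adjusted p = 0.0114). Of the 75, Hspa4l, a heat shock protein gene, was lower with pirfenidone than with vehicle, at 10.5, 9.06 and 9.91 RPKM with pirfenidone and 15.1, 16.5 and 13.1 RPKM with vehicle (-0.55, limma adjusted p = 0.0477), where 0.549% of all tested genes were lower. With no filter 0 of 82 such genes were called, where 0.315% of all genes were lower.

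Lists of genes that are not confined to motile cilia had medians near 0. Of 42 genes of intraflagellar transport, which carries cargo in all cilia, 3 were lower and 2 higher with pirfenidone, and 2 lower and 3 higher with vehicle, with medians of 0.03 with pirfenidone and -0.01 with vehicle. Of 28 transition zone and basal body genes, 0 were called with pirfenidone, and 0 were lower and 2 higher with vehicle. Among 17 genes of dynactin and of cytoplasmic dynein, a relative of the axonemal dyneins, 1 was lower and 1 higher with pirfenidone, and 1 lower and 0 higher with vehicle. In these 3 lists every share called was below that over all tested genes. Cep290, a transition zone protein, had 1.44, 1.53 and 1.55 RPKM with pirfenidone and 2.80, 3.29 and 2.68 RPKM with vehicle, and was lower with pirfenidone than with vehicle (-0.64, limma adjusted p = 0.0371), where 0.549% of all tested genes were lower. Of 13 tubulin genes, 2 were higher with pirfenidone and 0 were called with vehicle. Of 19 regulators of multiciliation, Ccdc78, Myb and Pifo were lower and Ankrd54 higher with pirfenidone; Ccdc78, Myb, Pifo and Trp73 were lower and Ankrd54, Ccp110, Rfx7 and Tfdp1 higher with vehicle. The difference between these lists and the members was not tested.

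**Figure D4:**
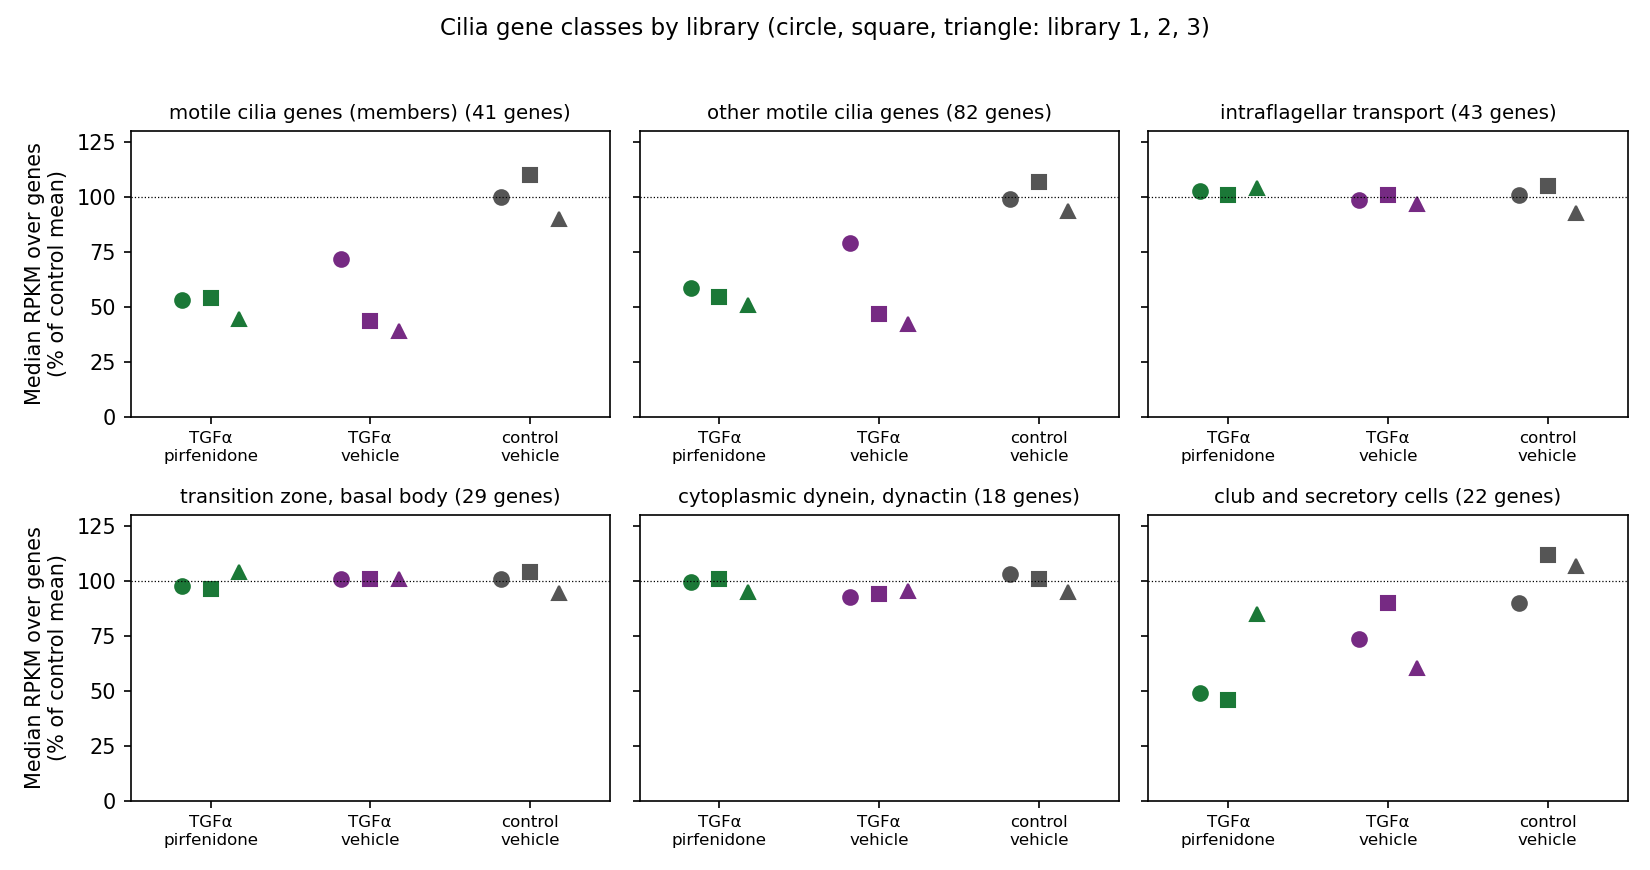
Median over the genes of a list of RPKM as a percentage of the control mean, for each library (circle, square and triangle for libraries 1, 2 and 3), in 6 lists. The motile cilia members stand at 53.2%, 54.1% and 44.3% with pirfenidone and 71.9%, 43.6% and 38.8% with vehicle, and intraflagellar transport genes stay between 93.0% and 105% in all 9 libraries.

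Markers of other lung cells were counted beside the same shares over all tested genes, which were 7.74% lower and 10.6% higher with pirfenidone, and 11.2% lower and 12.0% higher with vehicle. The 22 club and secretory cell genes, of neighbours of the ciliated cells in the bronchioles, summed to 20647, 19207 and 17140 RPKM with pirfenidone, 34948, 16921 and 16642 RPKM with vehicle and 51062, 55930 and 33866 RPKM in control. In this sum, most of it Scgb1a1, vehicle library 1 was again the highest TGFα library; by the median over the list it was not. Of 18 tested, 5 were lower with pirfenidone and 4 with vehicle, and Kcnj16 was at 0 in 1 library. Scgb1a1, the main club cell product, did not pass, at -1.40 with pirfenidone (limma adjusted p = 0.0691) and -1.23 with vehicle (adjusted p = 0.0892). Of 18 general epithelial genes 3 were lower and 0 higher with pirfenidone, and 1 lower and 3 higher with vehicle. Of 7 tested basal and neuroendocrine genes, Calca was higher in both groups, and Krt5 and Chga were at 0 in 1 library each. The 15 endothelial genes summed to 1136, 1136 and 1110 RPKM with pirfenidone, 1276, 877 and 896 RPKM with vehicle and 2725, 2587 and 1820 RPKM in control, with 13 lower with pirfenidone and 14 with vehicle. Of 14 alveolar type 1 genes 11 were lower with pirfenidone and 7 with vehicle, and of 15 alveolar type 2 genes 1 was lower and 1 higher with pirfenidone, and 1 lower and 6 higher with vehicle. The part of these cells in the cilia result was not tested.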

How the data were processed

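The deposited table holds RPKM values made by the authors for 16165 genes in 9 libraries. Its header names no unit, which was settled from the values: for 16158 genes (99.957%) they were whole reads to within 0.001 reads, once divided by 1 step per gene and library. Tools named in the submitters' processing notes, without their roles, are bcl2fastq, CASAVA 1.8, TopHat and DESeq, with the build mm10. How reads were counted, with which strand setting and annotation, is not stated there.

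Genes over 1 RPKM in at least 3 libraries (13849) were tested on the scale log2(RPKM + 1) by limma-trend in limma 3.58.1 under R 4.3.3, with the 3 groups in 1 model with 6 residual degrees of freedom, two-sided. P-values were Benjamini-Hochberg adjusted over all tested genes, with a threshold of 0.05. Folds are ratios of mean RPKM. The log2 fold changes understate changes of low genes. The added 1 RPKM, the filter, scaling, gene length, limma-voom on reads, the replicate number and single libraries were varied. The scripts were tested on simulated data. In simulated reads, with a spread set in advance rather than taken from these libraries, 14.9% to 23.9% of 1.5-fold changes were called. Of 2-fold changes 70.1% to 76.1% were called. Unchanged genes made up 6.06% to 9.93% of the calls, depending on the comparison. Positions are RefSeq on GRCm38.p6, matched by gene identifier. Every member is named. Of other lists the text gives counts, with examples by highest mean RPKM or by passing between pirfenidone and vehicle; the other such genes were named after their values were seen. The members and lists were chosen with earlier results of these data known. Nothing says that mice of a group were independent beyond being separate samples, so p-values measure the spread between these samples.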

Additional observations from a re-analysis of the deposited data

How the results depend on the processing

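Each cilia gene called against control kept its direction in every alternative that tested it; Dnah1 was not tested when a control library was left out, and neither Dnah1 nor Spef2 under the filter on the mean. The pirfenidone over vehicle count was 0 in all of them, with medians of -0.16 to 0.17. Limma-voom on recovered reads gave a median of -0.99 for vehicle over control and 1 higher gene (Rfx3), and -0.99 for pirfenidone over control; an added 0.1 RPKM gave -0.95 for pirfenidone over control, since a smaller added value shrinks folds less. Without 1 library at a time the count lower than control ranged from 8 to 34 for vehicle, where 4.92% to 13.0% of all genes were lower. For pirfenidone it ranged from 5 to 35, where 2.81% to 9.59% were lower. The fit with only the 5 libraries low in muscle RNA, given above, was an alternative chosen after seeing the data. The filter on the mean over all libraries was also chosen after seeing the data and gave medians of -0.76 for vehicle and -0.74 for pirfenidone, each over control. Same-numbered pirfenidone and vehicle libraries correlated in their deviations at 0.407, -0.136 and 0.458 for numbers 1, 2 and 3. Same-numbered pairs with control correlated at -0.0243 to 0.116. Not every pair deviated together, so the numbers were not taken to pair the mice. With the replicate block the median was -0.76 for vehicle and -0.73 for pirfenidone, each over control. By their lowest library, Lrriq1, Dnah7a, Lrrc6, Ccdc151 and Ak8 rest on the fewest reads.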
